A study of Rattus norvegicus with 6 samples.

Results

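The miRNAs described here are miR-144, miR-451, and miR-486, which are known from red blood cells and their precursors. Every rat name of the count table that carries one of these 3 numbers was taken, with both arms of a hairpin where the table lists them. This gave 5 of the 910 names in the table: rno-miR-144-5p, rno-miR-144-3p, rno-miR-451-5p, rno-miR-451-3p, and rno-miR-486, written here without the prefix that marks rat. Reads were counted for 4 of the 5, and 3 of them, miR-144-5p, miR-451-5p, and miR-486, had enough reads to be tested. No miRNA of another species with these numbers was listed.

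Small RNA was sequenced from the lens capsular membrane of 6 Sprague Dawley rat pups, 1 lens and 1 library per animal, with 3 animals in each group. Pups were 8 days old at the start of the model. The Na2SeO3 group was injected under the skin of the nape with 20 μmol/kg of sodium selenite, on days 3, 5, and 7, and the control group was given saline in the same way. Lenses of both groups were taken on day 15, and no genetic change was made in either group. As a model, this is an effect of injections given to pups and not of ageing. The counts summed to between 1806596 and 2829903 in the control libraries and to between 663096 and 968151 in the Na2SeO3 libraries, so the groups also differ in the number of counted miRNA reads. A miRNA needed 1.06 to 1.66 CPM (its count relative to the library's total) in a control library, or 3.10 to 4.52 CPM in a Na2SeO3 library, to reach 3 counts. The lens label was checked against miR-184, miR-204-5p, and miR-26a-5p, miRNAs that are abundant in the lens, which together made up, after the TMM scaling explained below, 127008 to 142151 CPM in the control group and 74049 to 86746 CPM in the Na2SeO3 group.

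miR-144 and miR-451 are cut from 1 primary transcript, which the erythroid transcription factor GATA1 switches on as red cells mature. Most miRNA hairpins are cut first by Drosha and then by Dicer. The hairpin of miR-451 is too short for Dicer and is instead sliced by the Argonaute protein Ago2, which leaves only the 5p strand. miR-486 lies inside Ank1, a gene of the membrane skeleton that is used in red cells and, from another promoter, in skeletal and heart muscle. It is therefore known both as an erythroid and as a muscle miRNA. A mature miRNA recognises target mRNAs mainly through its seed, bases 2 to 8 from the 5′ end.

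The mature sequences of miR-144 and miR-451 are shown because these miRNAs come from 1 transcript and their seeds can be compared. RefSeq sequences on the GRCr8 assembly were matched by name for 4 of the 5 members, all but miR-486. Each is written 5′ to 3′ with the seed in capitals.
miR-144-5p: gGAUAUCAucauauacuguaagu
miR-144-3p: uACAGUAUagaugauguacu
miR-451-5p: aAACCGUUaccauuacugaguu
miR-451-3p: aUGGUAAUgguucucuugcugcu

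The 4 seeds differ from each other, and none of them is found in another of the 693 mature rat names in RefSeq. If only bases 2 to 7 are compared, miR-144-3p shares them with miR-101a-3p and miR-101b-3p, and miR-451-3p shares them with miR-1193-5p. These 4 mature sequences are 20 to 23 bases long, and no sequence was at hand for miR-486. Counts of all members were compared without division by length.

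The hairpins are shown because miR-451 and miR-144 are cut in different ways from neighbouring places. Capitals mark the 5p arm.
Mir144: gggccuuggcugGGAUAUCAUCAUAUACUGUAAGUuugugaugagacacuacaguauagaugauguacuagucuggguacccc
Mir451a: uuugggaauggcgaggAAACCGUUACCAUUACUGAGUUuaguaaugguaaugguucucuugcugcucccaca

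In GRCr8 the Mir144 hairpin lies at chr10:63459397-63459479 and the Mir451a hairpin at chr10:63459569-63459640, both on the plus strand, 89 bases apart, with Flot2 and Eral1 as the nearest protein-coding genes on either side. These positions belong to the RefSeq sequences, since the build behind the counts is not given in the sources used here. Folded with RNAfold, the Mir451a hairpin of 72 bases had 17 unbroken base pairs next to a terminal loop of 4 bases. Of the 22 bases of miR-451-5p, 17 were paired and the last 4 lay in this loop. The Mir144 hairpin of 83 bases had 4 unbroken base pairs next to a loop of 6 bases, and neither arm of miR-144 reached into the loop. A short, unbroken stem is the feature for which the hairpin of miR-451 is known.

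miR-486 was higher in the Na2SeO3 group than in the control group, whereas miR-451-5p and miR-144-5p were not shown to differ. The ratio of miR-451-5p to miR-486 was close to 1 in each control library and below 1 in each Na2SeO3 library. This ratio does not depend on the scaling, but the levels do. Per raw read sequenced, the rise of miR-486 was not seen and miR-451-5p was lower in the Na2SeO3 group, as given below. In libraries from a whole tissue, fewer cells of a type and less RNA per cell cannot be told apart.

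The reads of rno-miR-486 numbered 344, 309, and 206 in the control group (libraries 1 to 3, here as below) and 273, 256, and 245 in the Na2SeO3 group. After TMM scaling, a scaling under which the bulk of miRNAs stay level between libraries, these were 119, 160, and 133 CPM in the control group and 397, 232, and 269 CPM in the Na2SeO3 group. Every Na2SeO3 library lay above every control library, and Na2SeO3 library 1 stood highest. This gave means of 137 ± 20.8 CPM and 300 ± 86.6 CPM (SD, n = 3 per group). The groups were compared by the quasi-likelihood test of edgeR, with p-values adjusted by Benjamini-Hochberg over all 341 miRNAs tested. The log2 fold change was 1.12 ± 0.21 (standard error, edgeR adjusted p = 0.00148). This made miR-486 a DEmiRNA, since DEmiRNAs had to pass both an adjusted p-value of 0.05 and a log2 fold change of 1 in size. Of all miRNAs tested, 11.4% were up-regulated DEmiRNAs and 25.2% were higher in the Na2SeO3 group with no overlap, and miR-486 took place 31 of 341 by log2 fold change. Without Na2SeO3 library 1 its log2 fold change was 0.84 (edgeR adjusted p = 0.00275), short of the fold change threshold.

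rno-miR-451-5p was counted 366, 271, and 181 times in the control group and 78, 179, and 112 times in the Na2SeO3 group. The TMM-scaled values were 126, 140, and 117 CPM in the control group and 113, 162, and 123 CPM in the Na2SeO3 group. The groups overlapped, and Na2SeO3 library 2 held the highest and Na2SeO3 library 1 the lowest value of all 6. The means were 128 ± 11.6 and 133 ± 25.9 CPM (SD, n = 3 per group), and the log2 fold change was 0.06 (95% interval -0.34 to 0.47, edgeR adjusted p = 0.833). Scaled to raw reads, it was a down-regulated DEmiRNA, with values given below. The 3p arm of miR-451, the strand that Ago2 cuts, had 0 counts in each of the 6 libraries. With 3 counts taken as the limit that a count of 0 allows, its level was limited to 1.06 to 1.66 CPM of the library's total in the control libraries and to 3.10 to 4.52 CPM in the Na2SeO3 libraries.

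rno-miR-144-5p was far less abundant than its neighbour miR-451-5p. It was counted 22, 11, and 7 times in the control group and 5, 8, and 9 times in the Na2SeO3 group. The TMM-scaled values were 7.59, 5.68, and 4.53 CPM in the control group and 7.27, 7.26, and 9.89 CPM in the Na2SeO3 group, which overlapped. The log2 fold change was 0.41 (95% interval -0.56 to 1.37, edgeR adjusted p = 0.526), an interval too wide to exclude a change as large as that of miR-486. miR-144-3p, the other arm of the same hairpin, was counted 3, 1, and 2 times in the control group and 0, 4, and 1 times in the Na2SeO3 group, too few to be tested. Of the 73 reads of both arms in all libraries, 62 were from the 5p arm (84.9%, exact Clopper-Pearson 95% interval 74.6% to 92.2%). The share was 87.0% of 46 reads in the control group and 81.5% of 27 reads in the Na2SeO3 group. The intervals, 73.7% to 95.1% and 61.9% to 93.7%, overlapped. Such intervals and limits cover the error of counting alone, since the reads carry no molecular identifiers and may be copies of the same molecule.

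**Figure D1:**
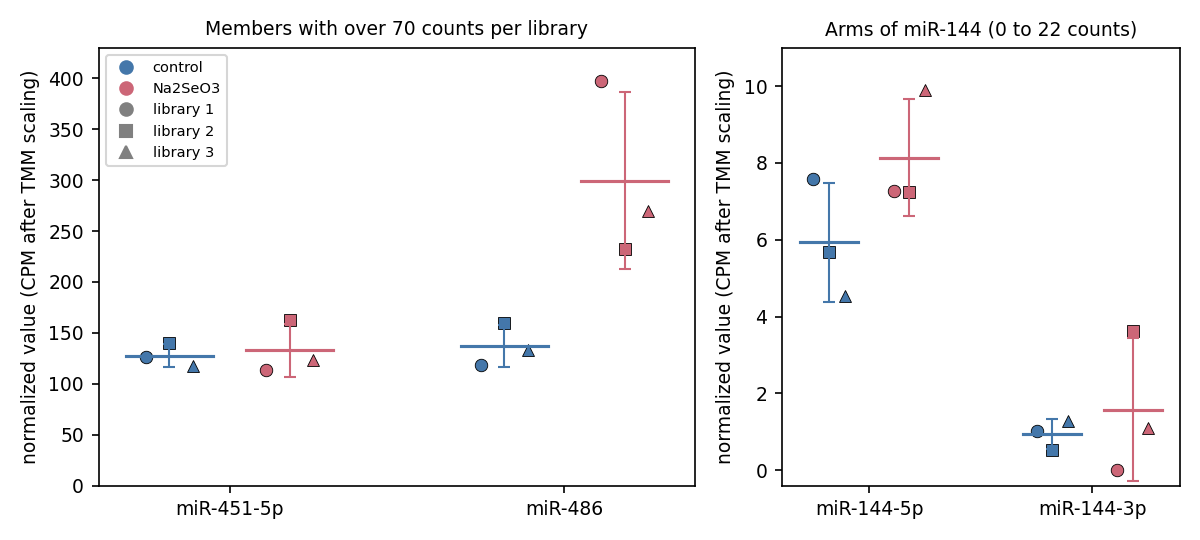
Normalized values (CPM after TMM scaling, linear axes) of miR-451-5p and miR-486 on the left and of the miR-144 arms on the right, with 1 symbol per library, the group mean as a line, and the SD (n = 3) as a bar. The 3 Na2SeO3 libraries lie between 232 and 397 CPM for miR-486, above the control libraries at 119 to 160 CPM, while the groups overlap for miR-451-5p and both arms of miR-144; the rise of miR-486 is absent when libraries are scaled to raw reads.

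In the order of levels, miR-486 and miR-451-5p were not separated in the control group, where their mean levels were 137 and 128 CPM. They ranked between places 141 and 164 of the 910 names of a control library. In the Na2SeO3 group miR-486 ranked between places 96 and 118, and miR-451-5p between places 138 and 164. miR-144-5p came next in both groups, at places 322 to 364, followed by miR-144-3p. Together the 5 names made up 0.022% to 0.029% of the counts of a control library and 0.042% to 0.054% of the counts of a Na2SeO3 library. The part of these counts that belonged to miR-486 was 50.3% ± 3.06 in the control group and 66.9% ± 9.71 in the Na2SeO3 group (SD over 3 libraries).

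A ratio of counts within a library does not depend on how libraries are scaled. The ratio of miR-451-5p to miR-486 was 1.06, 0.88, and 0.88 in the control libraries, and the 95% counting interval of each of the 3 included 1. In the Na2SeO3 libraries it was 0.29, 0.70, and 0.46, and the highest upper bound was 0.85. Library 1 was lowest (interval 0.22 to 0.37) and library 2 highest (0.57 to 0.85) of the 3. The mean ratio was 2.08-fold lower in the Na2SeO3 group, a difference of -1.06 on the log2 scale with no overlap between groups (p = 0.1 by a two-sided exact permutation test with n = 3 each, which cannot give a smaller p). Adjusted over the 2 ratios tested, p was 0.2. Leaving out each library gave differences from -1.37 to -0.73.

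The ratio of miR-144-5p to miR-451-5p, the products of 1 transcript, was 0.060, 0.041, and 0.039 in the control group and 0.064, 0.045, and 0.080 in the Na2SeO3 group. The groups overlapped, and the difference was 0.43 on the log2 scale (two-sided exact permutation test, p = 0.2, adjusted p = 0.2, n = 3 each). Each of the 6 counting intervals overlapped the others, with bounds from 0.015 to 0.16. miR-451-5p was counted 12.4 to 25.9 times as often as miR-144-5p in a library.

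**Figure D2:**
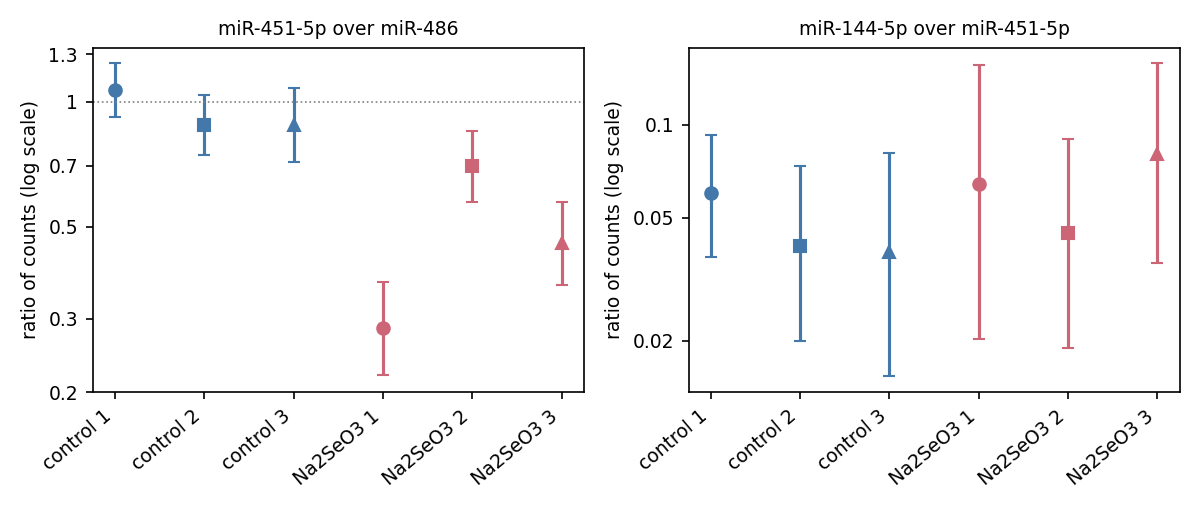
Ratio of counts within each library (log axes), miR-451-5p over miR-486 on the left and miR-144-5p over miR-451-5p on the right, with exact 95% counting intervals as bars. The left ratio is 0.88 to 1.06 in the control libraries and 0.29 to 0.70 in the Na2SeO3 libraries, and the right ratio overlaps between the groups.

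The direction of each member depended on what the libraries were scaled to. With TMM, DESeq2's size factors, upper-quartile scaling, or library size only, the log2 fold change of miR-486 was between 1.04 and 1.31. Scaled to the raw reads of each library, it was -0.030 (edgeR adjusted p = 0.944). On that scale miR-486 was at 48.3, 39.2, and 29.2 CPM of raw reads in the control group and at 47.1, 34.4, and 32.8 in the Na2SeO3 group, with full overlap. miR-451-5p was at 51.3, 34.4, and 25.7 CPM of raw reads in the control group and at 13.5, 24.1, and 15.01 in the Na2SeO3 group, lower without overlap, with a log2 fold change of -1.08 (edgeR adjusted p = 0.00543). On this scale 51.6% of all miRNAs tested were down-regulated DEmiRNAs, 68.0% were lower without overlap, and the median over all of them went from 0.08 to -1.07. Beside this shift, the share of raw reads counted on miRNA names was 25.6% to 39.7% in the control libraries. It was 11.4% to 13.03% in the Na2SeO3 libraries. This share is all that separates scaling to raw reads from scaling to library size only, under which the median was 0.27. Why the share was lower in the Na2SeO3 group was not tested.

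A change of scaling shifts all miRNAs by nearly the same amount, so the distance of a member from the median of all miRNAs is nearly fixed by construction and is given as a description. The log2 fold change of miR-486 lay 1.04 to 1.06 above the median under all 5 scalings. That of miR-451-5p lay between -0.02 and 0.00 from the median, and that of miR-144-5p between 0.29 and 0.33.

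**Figure D3:**
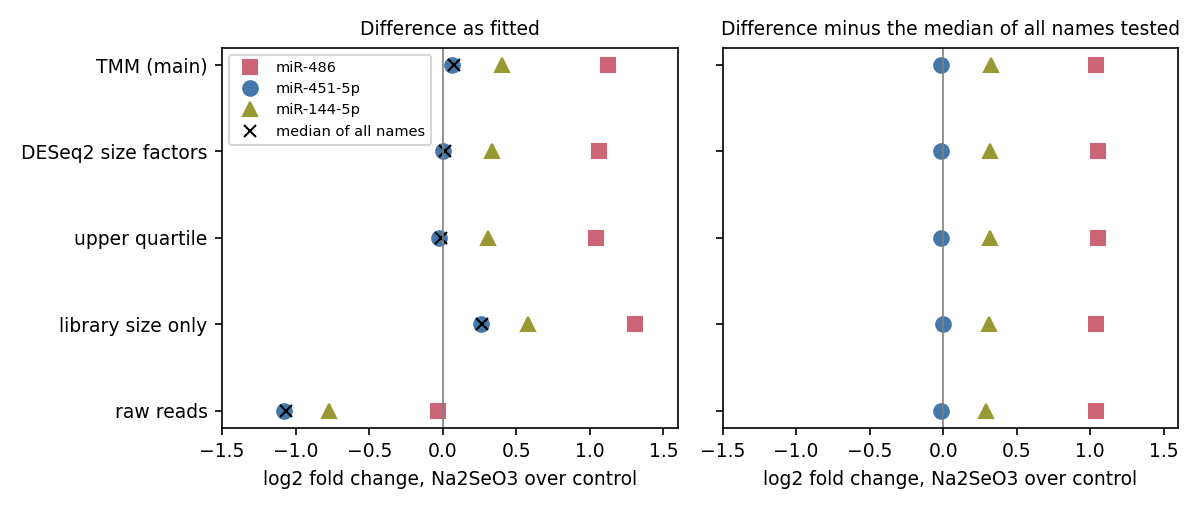
Log2 fold changes (Na2SeO3 over control) of the 3 tested members under 5 scalings, as fitted on the left with the median of all 341 miRNAs as a cross, and after subtraction of that median on the right. Scaling to raw reads moves all members down by about as much as the median, so that miR-486 is at -0.030 and miR-451-5p at -1.08, while the distance from the median on the right is nearly fixed by construction.

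Because miR-486 is also made in muscle, it was set beside muscle miRNAs. Of a list of 7 muscle miRNAs, 5 were tested, and 4 of these rose at an adjusted p-value under 0.05, although 4 of the 5 had a negative log2 fold change when scaled to raw reads. Of all miRNAs tested, 20.8% rose at this p-value. The 4 were miR-206-3p, miR-133b-3p, miR-1-3p, and miR-133a-3p, made in striated muscle fibres and their precursors. Only miR-206-3p also passed the fold change threshold, with a log2 fold change of 1.75 (edgeR adjusted p = 3.48e-05), and the other three were at 0.98, 0.69, and 0.68 in that order. miR-499-5p, which is made from a slow-muscle myosin gene, was at -0.49 (edgeR adjusted p = 0.068). The median of the 5 was 0.69, against 0.08 for all miRNAs tested, and it was -0.44 when scaled to raw reads. The summed level of the list, like those of the lists that follow in CPM after TMM scaling, was 7245 to 8792 CPM in the control group and 13474 to 14582 CPM in the Na2SeO3 group. The heart miRNAs miR-208a-3p and miR-208b-3p had at most 6 counts in a library. miR-1b, which shares its number with miR-1-3p, was tested but was not on the list. It was more abundant than miR-1-3p in the control group, at a mean of 12329 against 5430 CPM. Its log2 fold change was 0.24 (edgeR adjusted p = 0.273), and its groups overlapped.

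The ratio of miR-486 to miR-206-3p varied little within a group, at 0.128, 0.135, and 0.132 in the control group and 0.090, 0.081, and 0.085 in the Na2SeO3 group. It was 1.55-fold lower in the Na2SeO3 group, and the groups did not overlap. The ratio of miR-486 to miR-1-3p was 0.025, 0.026, and 0.024 in the control group and 0.046, 0.028, and 0.029 in the Na2SeO3 group, higher in the latter without overlap. Against miR-133a-3p the groups overlapped. Relative to each of the 3 muscle miRNAs, miR-451-5p was lower in the Na2SeO3 group without overlap, by 1.58-fold for miR-1-3p, 1.54-fold for miR-133a-3p, and 3.22-fold for miR-206-3p. These ratios were chosen after the data were seen and were not tested.

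Blood holds other cells besides red cells, and red cells carry miRNAs that most other cells make as well. Of 10 such shared miRNAs, all were tested and none was a DEmiRNA, against 16.4% of all miRNAs tested. With library size only 1 of the 10 was an up-regulated DEmiRNA, against 15.5% of all miRNAs, and with raw reads 4 of the 10 were down-regulated ones, against 51.6% of all. Of the 10 log2 fold changes, 7 were positive and 3 negative, and all 10 were negative when scaled to raw reads. miR-25-3p (log2 fold change 0.91, edgeR adjusted p = 0.00351) and miR-15b-5p (0.77, adjusted p = 0.0197) passed the adjusted p-value alone, which 34.6% of all miRNAs did in either direction. The hallmark miRNA miR-16-5p was at 0.42 (adjusted p = 0.068) and miR-92a-3p at 0.34 (edgeR adjusted p = 0.116), while the negative ones, miR-17-5p, miR-363-3p, and miR-20a-5p, were at -0.14, -0.10, and -0.03. The median of the 10 was 0.20, and -0.90 when scaled to raw reads. Their summed level was 1984 to 2427 CPM in the control group and 2856 to 3511 CPM in the Na2SeO3 group.

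None of 6 leukocyte miRNAs passed an adjusted p-value of 0.05, against 34.6% of all miRNAs tested. Scaled to raw reads, all 6 were negative, with a median log2 fold change of -1.30, and 5 of them were down-regulated DEmiRNAs, against 51.6% of all miRNAs. miR-223-3p, a miRNA of neutrophils and monocytes, was counted 15 to 39 times in a control library and 9 to 14 times in a Na2SeO3 library, with a log2 fold change of -0.19 (edgeR adjusted p = 0.743). miR-142-3p, present in blood cells of most lineages, was at 0.18 (edgeR adjusted p = 0.706). The summed level of the 6 was 973 to 1159 CPM in the control group and 832 to 1014 CPM in the Na2SeO3 group, so the ranges overlapped. The ratio of miR-451-5p to miR-142-3p also overlapped between the groups, whereas that of miR-486 to miR-142-3p was 2.01-fold higher in the Na2SeO3 group, with the highest control library (8.13) just below the lowest Na2SeO3 library (8.26). Na2SeO3 library 1 stood far above, at 27.3 with only 10 counts of miR-142-3p, and Na2SeO3 library 3 was at 9.42. Both arms of miR-126a, which marks the cells that line blood vessels, missed the threshold as well, at 0.24 for miR-126a-3p and 0.21 for miR-126a-5p (adjusted p = 0.216 and 0.479, edgeR). Both arms are negative when scaled to raw reads, with a median of -0.93. Relative to miR-126a-3p, miR-486 was 1.81-fold higher in the Na2SeO3 group without overlap, whereas miR-451-5p overlapped. These ratios too were chosen after the data were seen and were not tested. What part blood or muscle RNA has in the members' levels was not tested.

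Of the lens miRNAs, miR-184 fell with a log2 fold change of -1.13 (adjusted p = 3.48e-05) and miR-26a-5p with one of -0.33 (adjusted p = 0.0478), while miR-204-5p was at -0.40 (edgeR adjusted p = 0.0869). With library size only, none of the 3 was a down-regulated DEmiRNA, and their median was -0.21. Scaled to raw reads, all 3 were, against 51.6% of all miRNAs, and their median was -1.57. Relative to miR-184, miR-486 was 4.69-fold and miR-451-5p 2.25-fold higher in the Na2SeO3 group, both without overlap. These ratios also carry the fall of miR-184 itself, so a miRNA that stayed level would be higher against it as well. They too were chosen after the data were seen and were not tested.

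**Figure D4:**
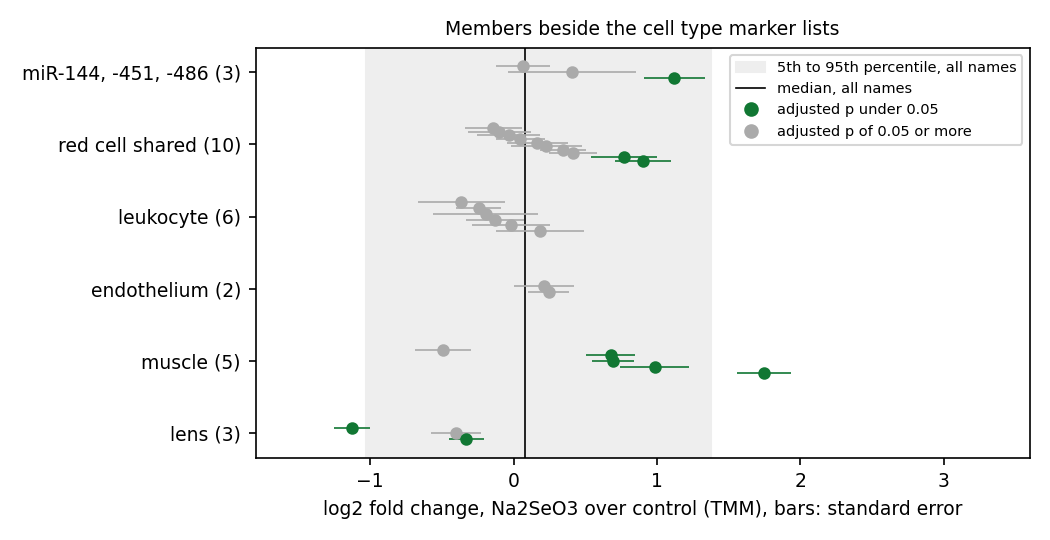
Log2 fold changes (Na2SeO3 over control, TMM scaling) of the tested members and of 5 marker lists, each point a miRNA with its standard error, green where the adjusted p-value is under 0.05, beside the median of all 341 miRNAs (line) and their 5th to 95th percentile (grey). miR-486 at 1.12 is in the range of 4 of the 5 muscle miRNAs (0.68 to 1.75), whereas the fifth, miR-499-5p, is at -0.49. That range also holds miR-25-3p (0.91) and miR-15b-5p (0.77) of the red cell list, so it is not particular to muscle. miR-451-5p at 0.06 is near the line. Scaled to raw reads, the medians of the red cell, leukocyte, endothelium, muscle, and lens lists are all negative.

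The miRNAs most like each member were found by the root mean square difference between log2 CPM values over the 6 libraries, each miRNA centred on its own mean, among 325 other tested rat names. This measure includes the difference between the groups, so a name near a member has a similar log2 fold change by construction. Nearest to miR-486 were miR-409a-3p (difference 0.12), miR-25-3p (0.14), and miR-382-5p (0.14). miR-409a-3p and miR-382-5p were up-regulated DEmiRNAs, with log2 fold changes of 1.07 and 1.27. Nearest to miR-451-5p were let-7e-5p (0.09), miR-379-3p (0.12), and miR-423-5p (0.12), with log2 fold changes of 0.05 to 0.22 that did not pass. Nearest to miR-144-5p were miR-382-3p (0.10), miR-322-5p (0.15), and miR-592 (0.17). The low counts of miR-144-5p draw its log2 values toward each other, because 2 counts are added as a prior. The members were not each other's nearest names. miR-144-5p took place 125 in likeness to miR-451-5p, with a difference of 0.33, and miR-486 took place 286, with a difference of 0.65.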

How the data were processed

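The authors used Cutadapt and Fqtrim to trim the small RNA reads and FastQC to check them, aligned them to the rat genome of Ensembl with miRDeep, and deposited raw read counts per miRNA name. HISAT2 is also named in the labels. The build and versions are not given in the sources used here. Reads of different length under 1 name are not told apart in such counts. Columns were mapped to animals by sample title.

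The whole table was fitted. Names were filtered with filterByExpr (minimum count 10), scaled with TMM, and tested with edgeR's quasi-likelihood test with group as the only factor. DEmiRNAs passed both thresholds of the study's methods, 0.05 for the adjusted p-value and 1 for the size of the log2 fold change. Standard errors were derived from the F statistic. Log2 CPM used a prior count of 2. Ratios were compared with exact permutation tests. The procedure was also run on simulated counts with known changes, drawn with means and spread taken from these data. As an alternative, libraries were scaled to the raw read totals that the study lists. The members, marker lists, and rules were chosen with earlier results of these data known. The rule for named miRNAs took every row of the 3 numbers, the 3 nearest in pattern to each tested member, and, per marker list, the first 2 names and any DEmiRNA. Other list members, and miR-1b, were named after their values were seen. The lowest chi-square over its degrees of freedom of any pair of libraries was 28.0, so none was taken as a copy. Nothing says that the animals came from separate litters, so p-values measure the spread between these lenses. Sequences are from RefSeq (GRCr8), where 686 of 763 rat names were matched. Tools were R 4.3.3, edgeR 4.0.16, DESeq2 1.42.0, SciPy 1.17.1, and RNAfold 2.7.2. The mRNA libraries are not analysed here.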

Additional observations from a re-analysis of the deposited data

How the results depend on the processing

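Among the alternatives, dropping the fold change threshold reuses the main fit, so the direction and call of miR-486 were fixed in advance there. With that one included, the increase of miR-486 among counted miRNAs kept its direction in 15 of 16 alternatives and its call in 14. The exceptions were scaling to raw reads (log2 fold change -0.030) and leaving out Na2SeO3 library 1 (0.84), and leaving out each library gave 0.84 to 1.28, with adjusted p-values up to 0.0330 (edgeR). With the replicate block it was 1.10 (edgeR adjusted p = 0.00553). Same-numbered libraries share only a number, their deviations correlated at -0.17, -0.18, and -0.26 across miRNAs, and the block changed the call of no member. miR-451-5p changed sign with upper-quartile scaling (-0.029), without a filter (-0.021), with DESeq2's Wald test (-0.020), and with raw reads (-1.08, the 1 alternative in which it was called), and it ranged from -0.11 without Na2SeO3 library 2 to 0.14 with other libraries left out. miR-144-5p was at -0.77 with raw reads, and it could not be tested with at least 10 counts in every library or without any 1 of the control libraries. The members' combined CPM, 1.85-fold higher in the Na2SeO3 group, was 1.63-fold with TMM-scaled sizes and 0.729-fold with raw reads. The DEmiRNAs, 56 in all, numbered 182 with raw reads and 118 without the fold change threshold. The split was 39 up-regulated and 17 down-regulated, 53 and 10 with library size only, 32 and 22 with upper-quartile scaling, and 6 and 176 with raw reads. Both ratios kept their direction in all 7 alternatives each. Apart from fewer samples or names tested and the change of scale itself, the cause of these changes was not tested. The depth left 0 to 22 counts per miR-144 arm and library, and no count of miR-451-3p.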
